A study of Rattus norvegicus with 28 samples.

Results

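Exendin-4 (Ex-4) and forskolin (FSK) were compared directly after 16 h in wild-type (WT) INS-1 cells, a rat insulinoma line used as a model of the pancreatic beta cell. The comparison takes 4 of the 28 RNA-seq libraries of the study, 2 from cells given Ex-4 at 10 nM and 2 from cells given FSK at 10 µM, and sets the 2 treatments against each other rather than against untreated cells. All 4 carried the WT genotype, and the cells were moved to serum-free medium before either agent was added. The other libraries were untreated WT cells (CON), 1 h and 8 h of each agent, and the same 7 conditions in Med14 S983A cells, in which a serine of the Mediator subunit Med14 was changed to alanine by knock-in. The Med14 S983A cells were grown from single sorted cells, and the study made 2 independent knock-in lines for its experiments, but the labels do not tie either line to a library. The study's methods call the duplicates biological replicates, while the labels do not say that the 2 libraries of a group came from separate cultures, so p-values measure the spread between these libraries, which may be technical. Each agent was used at 1 dose, so the 2 treatments differ in agent and in the strength of stimulation at once, and these cannot be told apart.

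Ex-4 is a stable agonist of the GLP-1 receptor, which couples through the stimulatory G protein to adenylyl cyclase. FSK bypasses the receptor and activates most adenylyl cyclases directly. In both cases the cAMP formed acts on PKA, whose catalytic subunits phosphorylate CREB at cAMP response elements, and on the Epac exchange factors. In beta cells cAMP strengthens glucose-stimulated insulin release, and the pathway is held in check by receptor desensitization, phosphodiesterases and CREB-induced inhibitors.

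The 4 libraries held 49114767 to 56171843 read fragments each, and the 2 libraries of each treatment correlated at r = 0.999 across genes on the log2 scale. Of 17455 gene symbols, each represented by its most abundant transcript, 10275 averaged 1 TPM or more over the 28 libraries and were tested, where TPM is a gene's share of all transcripts in a library, corrected for transcript length. The beta cell markers Ins1, Ins2, Pdx1, Nkx6-1, Slc2a2 and Iapp were all above 1 TPM and summed to 71930 to 76160 TPM, whereas delta and PP cell markers summed to at most 0.22 TPM. Spiked-in ERCC RNAs took 0.735% and 0.753% of fragments with Ex-4 and 0.691% and 0.736% with FSK. In bulk RNA, fewer cells of a type and less RNA per cell cannot be told apart.

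At 16 h, 1925 genes (18.7% of those tested) differed between Ex-4 and FSK by more than 1.5-fold at an adjusted p under 0.05 in limma, which is what "called" means below. Of these, 1176 (11.4%) were higher with Ex-4 and 749 (7.29%) were higher with FSK. The median log2 difference, Ex-4 minus FSK, of all tested genes was 0.03. At 2-fold or more, 432 genes were higher with Ex-4 and 279 with FSK, and at 8-fold or more these numbers were 3 and 7. Centring each library on its median gave 1034 and 877 genes in place of 1176 and 749, and scaling to the ERCC RNAs gave 1048 and 901.

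**Figure D1:**
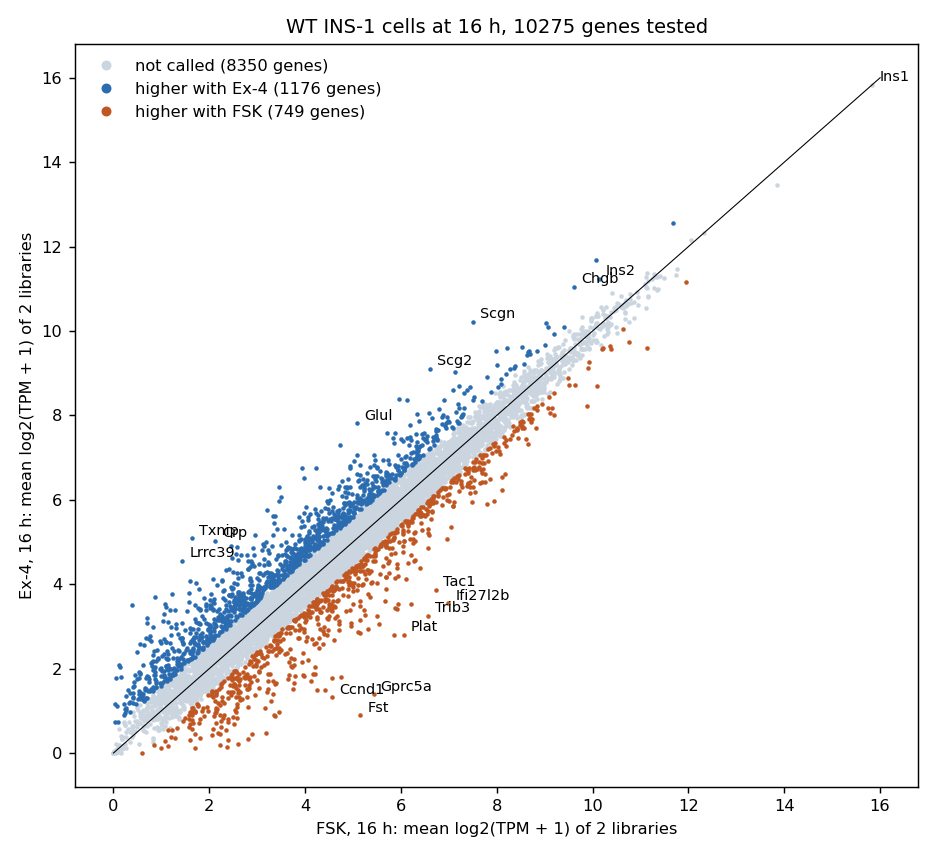
Each point is 1 of the 10275 genes tested, plotted by its mean log2(TPM + 1) over the 2 FSK libraries (x axis) and over the 2 Ex-4 libraries (y axis), with the line of equality. Blue points are the 1176 genes called higher with Ex-4 and orange points the 749 called higher with FSK. Ins1 lies on the line at the top of the range, while Fst and Txnip lie farthest from it in opposite directions.

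The CON libraries place these differences. Of the 1176 genes higher with Ex-4, 925 (78.7%) had an Ex-4 mean between the CON and FSK means, and of the 749 higher with FSK, 500 (66.8%) did, against 60.7% of all tested genes. FSK against CON was called lower for 1070 of the former and higher for 621 of the latter, whereas Ex-4 against CON was not called for 900 and 573 of them. Over all tested genes, 11.8% were called for Ex-4 against CON and 34.5% for FSK against CON. These comparisons share the CON libraries with each other and the treated libraries with the direct comparison, so they are given side by side only. They also move with the scaling. The median log2 difference from CON was -0.16 with Ex-4 and -0.20 with FSK in TPM but 0.15 and 0.16 after ERCC scaling, while the direct comparison moved only from 0.03 to -0.03.

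Of genes averaging 10 TPM or more in the 4 libraries, Fst differed most. It encodes the activin antagonist follistatin (rn6 chr2:46537589-46544452, minus strand) and measured 0.835 and 0.891 TPM with Ex-4 and 33.9 and 35.0 TPM with FSK, against 0.289 and 0.458 TPM in CON. The FSK mean was 39.9 times the Ex-4 mean, and the log2 difference was -4.25 ± 0.09 (SE; limma adjusted p = 1.3e-22). The groups were far apart. Ex-4 against CON was not called for Fst, at a log2 difference of 0.44 (limma adjusted p = 8.6e-05), although both Ex-4 values lay above both CON values. Log2 differences are taken on log2(TPM + 1), which understates fold changes at such low levels.

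Gprc5a, which encodes a retinoic acid-inducible orphan receptor (chr4:168832937-168851650), measured 1.72 and 1.52 TPM with Ex-4 and 41.9 and 42.2 TPM with FSK. Plat, the gene of tissue plasminogen activator, measured 5.51 and 6.49 TPM with Ex-4, 63.4 and 68.1 TPM with FSK and 0.955 and 1.08 TPM in CON. Ccnd1, encoding the G1 cyclin D1, stood at 1.43 and 1.55 TPM with Ex-4 and at 23.3 and 21.8 TPM with FSK. All 3 genes were also called higher than CON with Ex-4, so that Ex-4 moved them the same way as FSK and less far. The same order held for the neuropeptide genes Tac1 (substance P; 14.2 and 13.1 against 107 and 103 TPM) and Nmu (neuromedin U; 1.90 and 1.71 against 19.8 and 20.7 TPM). Ifi27l2b, Trib3, Atf3 and Depdc7 complete the 10 largest, with log2 differences of -3.43, -3.30, -3.08 and -2.94.

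In the opposite direction the largest difference was that of Txnip, which encodes the thioredoxin-interacting protein, an arrestin-domain inhibitor of thioredoxin and of glucose uptake (chr2:198683168-198686968). It measured 329 and 312 TPM in CON, 33.1 and 32.8 TPM with Ex-4 and 1.92 and 2.34 TPM with FSK. Both agents lowered Txnip against CON, and the Ex-4 mean was 15.5 times the FSK mean, a log2 difference of 3.44 ± 0.08 (SE; limma adjusted p = 4.4e-21).

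Scgn, encoding the calcium sensor secretagogin, measured 1236 and 1152 TPM with Ex-4 and 188 and 173 TPM with FSK, against 1320 and 1385 TPM in CON. Glul, which encodes glutamine synthetase, measured 220 and 228 TPM with Ex-4 and 33.4 and 32.8 TPM with FSK, against 260 and 255 TPM in CON. For both genes FSK against CON was called and Ex-4 against CON was not. Ffar3, the gene of a short-chain fatty acid receptor, measured 77.5 and 79.7 TPM with Ex-4 and 9.22 and 10.6 TPM with FSK. Maob, encoding monoamine oxidase B, measured 107 and 107 TPM with Ex-4 and 13.5 and 15.1 TPM with FSK. Lrrc39, Crp, Baiap3, Fxyd6 and Cabp7 complete the set, with log2 differences of 3.12, 2.92, 2.58, 2.57 and 2.54. In unscaled TPM the CON libraries were highest and the FSK libraries lowest in all 10 of these genes. In the 10 genes higher with FSK the order was the opposite. The place of CON depends on the scaling. Ffar3, Maob, Fxyd6 and Cabp7 were called lower than CON with Ex-4, but not after median-centring, after ERCC scaling, in edgeR or in DESeq2. ERCC scaling lowers CON relative to Ex-4, so CON need not stay highest where the 2 were close, as for Scgn and Glul.

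**Figure D2:**
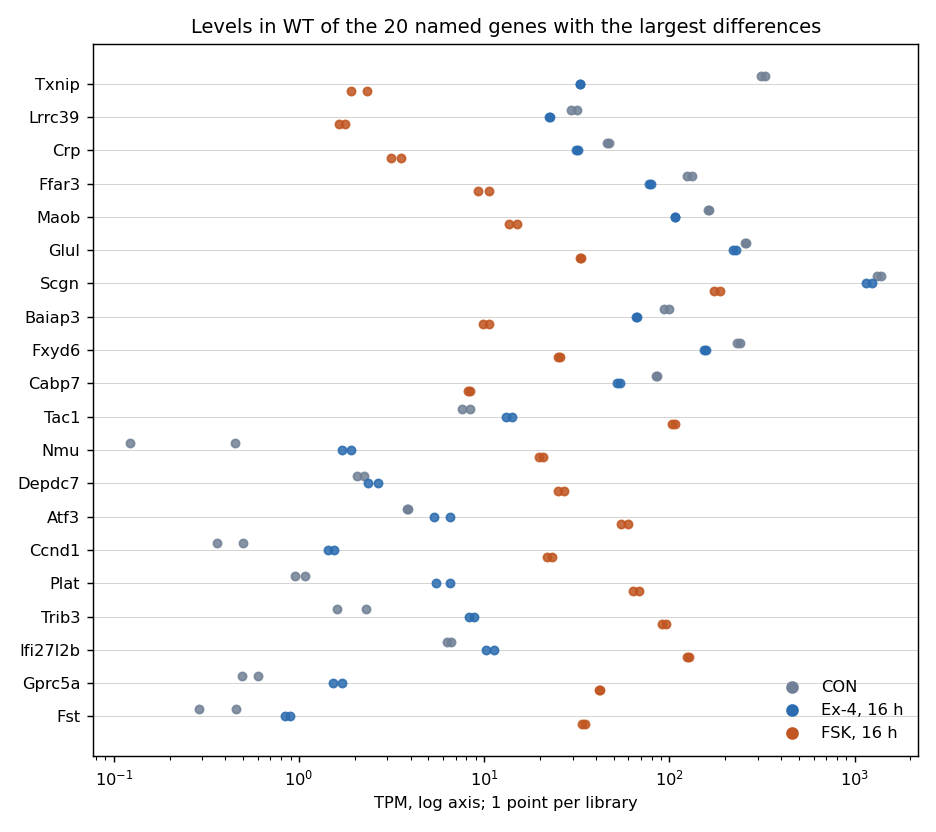
TPM on a log axis in the 2 WT libraries of CON (grey), 16 h Ex-4 (blue) and 16 h FSK (orange) for the 10 genes with the largest difference in each direction, 1 point per library. In all 20 genes both Ex-4 libraries lie between the CON and FSK libraries in unscaled TPM, as for Txnip at 32.8 to 33.1 TPM. The place of CON depends on the scaling.

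Immediate early and CREB feedback genes had the lowest median log2 difference among lists of over 10 genes, on the side of FSK. They encode transcription factors, phosphatases and kinases that CREB switches on and that in part switch the pathway off again. Of 27 tested members, 22 were higher with FSK and 0 with Ex-4 in limma (81.5% called, 18.7% of all tested genes). The median log2 difference was -1.42, against 0.03 for all genes. The count higher with Ex-4 was also 0 at an unadjusted p under 0.05 and in edgeR and DESeq2, here and for the ATF4 list that follows. Of the called members, 4 carry the full cAMP response element, TGACGTCA, in the window searched around a RefSeq start site, and they are shown because this element is where CREB binds. The 48 bases around the element are from RefSeq promoters of build GRCr8, each on the strand of its gene, with the element in capitals.
Jund (chr16:18769965-18770012, minus strand): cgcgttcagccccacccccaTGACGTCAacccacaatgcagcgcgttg
Ier2 (chr19:40399287-40399334, plus strand): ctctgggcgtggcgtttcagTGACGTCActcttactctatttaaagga
Dusp1 (chr10:17184709-17184756, plus strand): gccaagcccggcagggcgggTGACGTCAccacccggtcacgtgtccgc
Ppargc1a (chr14:63634107-63634154, plus strand): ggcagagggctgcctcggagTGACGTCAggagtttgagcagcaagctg

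The element lies 221, 66, 124 and 181 bases before the start site in these 4 promoters. Of 19 members with a promoter of 300 bases in RefSeq, 5 (26.3%) held TGACGTCA on either strand, against 3.35% of the 8201 tested genes with a promoter. It was found in 28 of 579 promoters (4.84%) of genes higher with FSK and in 16 of 895 (1.79%) of genes higher with Ex-4. The shorter TGACG, which the full element contains, was found in 14 of the 19 promoters (73.7%), in 33.6% of those of tested genes, and in 37.7% and 20.6% of those higher with FSK and with Ex-4. These shares are descriptions of the letters in these windows.

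Fos, the founding AP-1 gene, measured 2.24 and 2.32 TPM with Ex-4 and 16.7 and 16.2 TPM with FSK, against 2.16 and 1.91 TPM in CON (log2 difference -2.41 ± 0.10 SE; limma adjusted p = 2.5e-16). Crem, which gives rise to the repressor ICER, measured 20.2 and 19.3 TPM with Ex-4 and 86.4 and 80.4 TPM with FSK, against 11.7 and 10.6 TPM in CON. Against CON, Crem was called higher with Ex-4 and Fos was not. Sik1, a kinase that inactivates the CREB coactivators, measured 6.69 and 7.36 TPM with Ex-4 and 30.6 and 29.2 TPM with FSK. Nr4a1, an orphan nuclear receptor, measured 21.4 and 22.2 TPM with Ex-4 and 70.9 and 68.1 TPM with FSK. Ppargc1a, encoding the coactivator PGC-1alpha, measured 10.1 and 12.3 TPM with Ex-4, 33.1 and 35.5 TPM with FSK and 3.29 and 2.46 TPM in CON. Jund, whose element was shown, measured 95.6 and 101 TPM with Ex-4 and 199 and 211 TPM with FSK, and its CON values were 96.1 and 108 TPM.

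Against CON, 23 of the 27 members were called higher with FSK and 6 with Ex-4, where 10.3% and 3.53% of all tested genes were. The Ex-4 count was 11 after ERCC scaling. The members not called in the direct comparison were Per1, Egr1, Btg2, Sik3 and Dusp6, with log2 differences between -0.46 and 0.01, and the call for Ier2 (-0.625) ended without Ex-4 replicate 2 (-0.53) and without FSK replicate 1 (-0.57). Egr1, for example, measured 8.84 and 10.3 TPM with Ex-4 and 11.1 and 13.5 TPM with FSK.

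ATF4 targets and aminoacyl-tRNA synthetases showed the same one-sided picture. ATF4 is the transcription factor of the integrated stress response and switches on amino acid transport, amino acid synthesis and tRNA charging. Of 32 tested members, 26 were higher with FSK and 0 with Ex-4 (81.2% called, 18.7% of all tested genes), with a median log2 difference of -0.96. The composite element bound by ATF4 with C/EBP partners, searched as TGATGNAA on both strands, is shown in capitals for 6 called members. A capital stretch that starts with TT is the element on the opposite strand.
Trib3 (chr3:161275527-161275574, minus strand): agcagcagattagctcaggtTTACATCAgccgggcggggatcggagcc
Chac1 (chr3:126795944-126795991, plus strand): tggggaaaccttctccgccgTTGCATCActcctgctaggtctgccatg
Slc7a1 (chr12:11664438-11664485, plus strand): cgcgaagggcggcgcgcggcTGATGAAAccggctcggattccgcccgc
Tars1 (chr2:62114802-62114849, minus strand): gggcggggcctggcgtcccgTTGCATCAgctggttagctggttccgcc
Iars1 (chr17:15193649-15193696, minus strand): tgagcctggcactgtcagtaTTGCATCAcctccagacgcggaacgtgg
Mars1 (chr7:65023743-65023790, minus strand): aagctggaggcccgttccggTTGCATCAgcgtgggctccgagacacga

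These stretches are from the same RefSeq GRCr8 promoters, and the element starts 21, 167, 30, 27, 24 and 17 bases before the start site in the order given. It was found in 7 of the 27 members with a promoter (25.9%) and in 1.93% of the promoters of tested genes. Among called genes it was found in 25 of 579 promoters (4.32%) of those higher with FSK and in 22 of 895 (2.46%) of those higher with Ex-4.

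Trib3, a pseudokinase that feeds back on ATF4, measured 8.32 and 8.81 TPM with Ex-4 and 90.9 and 95.9 TPM with FSK, against 1.60 and 2.30 TPM in CON (log2 difference -3.30 ± 0.09 SE; limma adjusted p = 8.3e-20). Chac1, which degrades glutathione, measured 11.2 and 9.77 TPM with Ex-4 and 72.0 and 73.7 TPM with FSK. Slc7a11, the cystine transporter, measured 0.965 and 0.941 TPM with Ex-4 and 9.36 and 10.7 TPM with FSK. All 3 were called higher than CON with both agents. Atf4 itself measured 409 and 421 TPM with Ex-4, 1066 and 1116 TPM with FSK and 271 and 277 TPM in CON. Ddit3, which encodes the stress factor CHOP, measured 75.2 and 72.8 TPM with Ex-4 and 269 and 280 TPM with FSK.

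Enzymes and synthetases of the list were also higher with FSK. Psat1, of serine synthesis, measured 56.7 and 60.0 TPM with Ex-4 and 212 and 233 TPM with FSK, and its CON values of 85.8 and 85.1 TPM lay between the treatments. The tRNA synthetase genes Tars1, Iars1 and Mars1 had log2 differences of -1.34, -0.96 and -0.67. Slc7a5, Gars, Lars1, Wars1, Slc38a2 and Sesn2 were not called, at -0.58 to -0.18. Slc7a5, at -0.58, lay just short of the 1.5-fold minimum and was called higher with FSK in 8 alternatives, at -0.65 to -0.60, among them median-centring, ERCC scaling, edgeR and DESeq2. Against CON, 27 of the 32 members were called higher with FSK and 6 with Ex-4, or 17 with Ex-4 after ERCC scaling.

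**Figure D3:**
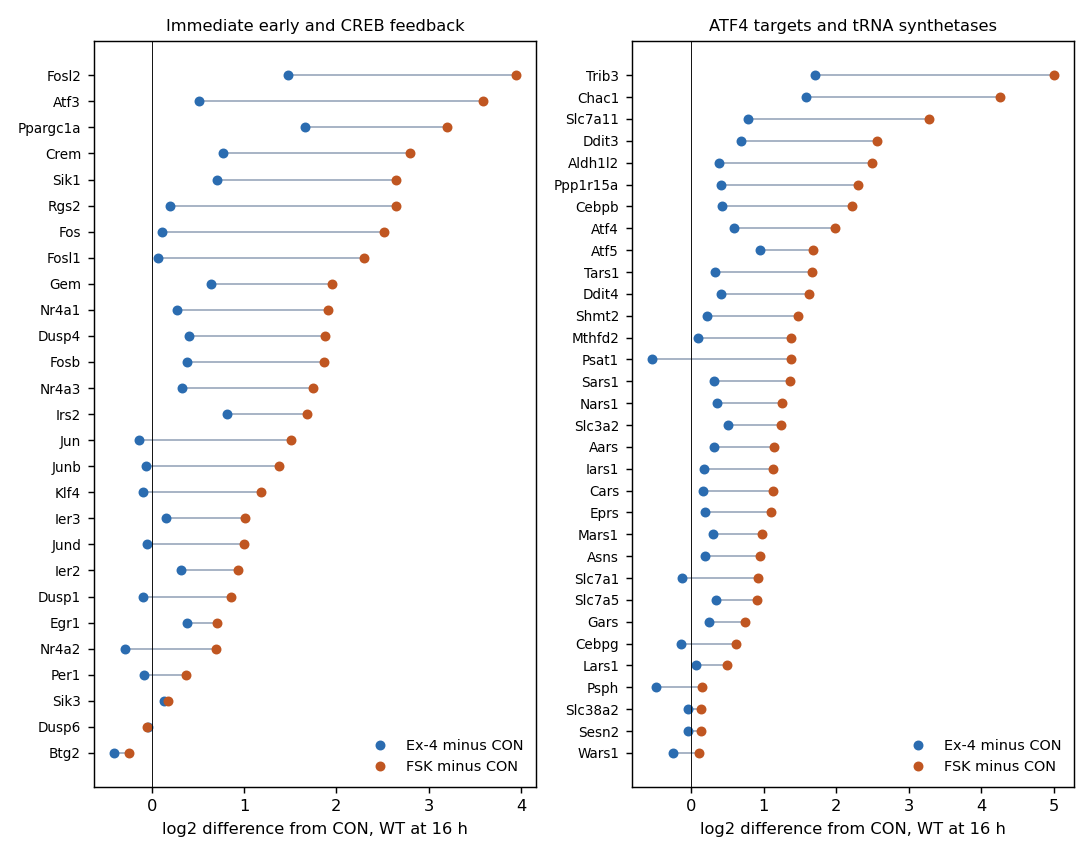
Log2 difference from CON in WT at 16 h with Ex-4 (blue) and with FSK (orange) for the 27 immediate early and CREB feedback genes (left) and the 32 ATF4 targets and tRNA synthetases (right), each pair joined by a line. The orange points lie to the right of the blue ones for all but Dusp6, for which they coincide, with Trib3 at 1.71 and 5.01.

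Beta cell transcription factors went the other way. Of 17 tested members, 10 were higher with Ex-4 and 1 with FSK, with a median log2 difference of 0.71. In all 64.7% were called, against 18.7% of all tested genes. Neurod1, a basic helix-loop-helix factor of endocrine cells, measured 157 and 166 TPM with Ex-4 and 56.3 and 57.2 TPM with FSK, against 234 and 214 TPM in CON (log2 difference 1.49 ± 0.05 SE; limma adjusted p = 2.9e-18). Rfx6 measured 95.4 and 93.7 TPM with Ex-4 and 34.2 and 35.0 TPM with FSK. Nkx2-2, Isl1 and Mnx1, homeobox factors of the endocrine pancreas, had log2 differences of 1.10, 0.82 and 1.17. Their CON values were near those with Ex-4, as for Isl1 at 172 and 161 TPM in CON, 182 and 189 TPM with Ex-4 and 103 and 106 TPM with FSK.

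Pdx1, the insulin gene activator, measured 249 and 258 TPM with Ex-4 and 159 and 150 TPM with FSK, a log2 difference of 0.71 ± 0.04 (SE; limma adjusted p = 3.5e-14). The single member higher with FSK was Foxa1, a pioneer factor, at 2.47 and 2.82 TPM with Ex-4 and 8.28 and 8.97 TPM with FSK. Nkx6-1, Pax6, Foxa2, Hnf4a and St18 were not called, at 0.54 to 0.14. Mafa was not in the table used.

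Of 5 tested alpha cell markers, 3 were higher with Ex-4. The 9 alpha cell markers in the table summed to 2032 and 2107 TPM with Ex-4 and 1300 and 1349 TPM with FSK. Most of this was Gc (vitamin D-binding protein; 1065 and 1117 against 534 and 536 TPM) and Gcg (proglucagon; 947 and 966 against 761 and 809 TPM). Gcg was not called. Exocrine markers summed to 51.9 to 67.2 TPM, and limma called 0 of 4 tested, with 3 at an unadjusted p under 0.05 and 2 called by edgeR and by DESeq2. The part of these marker levels in the other differences was not tested.

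The insulin genes differed from each other. Ins1 (chr1:272799784-272800349) measured 58758 and 57777 TPM with Ex-4 and 59777 and 56967 TPM with FSK, so that the groups overlapped, and both were above the 34501 and 33716 TPM of CON. Its log2 difference was 0.00, with a 95% interval from -0.12 to 0.11. Ins2 (chr1:215856967-215858034) measured 2463 and 2359 TPM with Ex-4 and 1154 and 1080 TPM with FSK, against 2885 and 2991 TPM in CON, a log2 difference of 1.11 ± 0.06 (SE; limma adjusted p = 7.4e-15). The 2 genes are close copies, so the division of reads between them is uncertain.

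Of 11 genes of insulin and its processing, 4 were higher with Ex-4 and 1 with FSK (45.5% called, 18.7% of all tested genes). Slc30a8, the granule zinc transporter, measured 708 and 730 TPM with Ex-4 and 399 and 403 TPM with FSK. Ero1b, an endoplasmic reticulum oxidase for proinsulin folding, measured 45.7 and 46.8 TPM with Ex-4 and 19.4 and 20.1 TPM with FSK. The member higher with FSK was Pam, which amidates peptide hormones, at 825 and 876 TPM with Ex-4, 1709 and 1748 TPM with FSK and 207 and 195 TPM in CON. Pcsk1, Pcsk2 and Cpe, the convertases and carboxypeptidase that cut proinsulin, were not called, at 0.49, 0.13 and 0.01.

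Granins and peptide hormones split in both directions, with 3 of 12 higher with Ex-4 and 5 with FSK. In all 66.7% were called, against 18.7% of all tested genes. Scg2, encoding secretogranin II, measured 536 and 562 TPM with Ex-4 and 96.7 and 95.5 TPM with FSK, against 581 and 575 TPM in CON (log2 difference 2.5 ± 0.04 SE; limma adjusted p = 3.2e-25). Chgb, encoding chromogranin B, measured 2041 and 2212 TPM with Ex-4, 778 and 786 TPM with FSK and 1360 and 1341 TPM in CON, so that CON lay between the treatments. Vgf, a neurosecretory granin precursor, showed the opposite order, at 746 and 796 TPM with Ex-4, 2242 and 2282 TPM with FSK and 367 and 360 TPM in CON.

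Cck, the cholecystokinin gene, measured 158 and 158 TPM with Ex-4 and 421 and 387 TPM with FSK, against 24.1 and 25.5 TPM in CON. Cartpt, the precursor of the CART peptide, measured 71.0 and 71.2 TPM with Ex-4 and 90.9 and 81.1 TPM with FSK, against 7.71 and 9.07 TPM in CON. Cartpt differed by less than 1.5-fold between the agents, with a 95% interval of the log2 difference from -0.41 to -0.12, while both agents raised it against CON.

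Of 28 ion channel genes of the secretory response, 14 were higher with Ex-4, 3 were higher with FSK and 11 were not called. The share called was 60.7%, against 18.7% of all tested genes. The median log2 difference was 0.54. The genes of the 2 subunits of the KATP channel, which closes when glucose is metabolized, were both higher with Ex-4. Kcnj11 measured 222 and 227 TPM with Ex-4, 122 and 119 TPM with FSK and 233 and 219 TPM in CON, and Abcc8 measured 224 and 239 TPM against 125 and 125 TPM. The calcium channel genes Cacna1a and Cacna1c measured 26.99 and 30.9 against 8.75 and 9.13 TPM and 10.6 and 11.5 against 4.12 and 4.46 TPM. Kcnb2, of a delayed rectifier potassium channel, had a log2 difference of 1.54.

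Of 31 genes of granule exocytosis, 7 were higher with Ex-4 and 5 with FSK, a share of 38.7% against 18.7% of all tested genes. Rab3b, a vesicle GTPase, measured 107 and 107 TPM with Ex-4 and 17.9 and 17.7 TPM with FSK, against 126 and 118 TPM in CON. Rph3al, the Rab effector Noc2, measured 188 and 192 TPM with Ex-4 and 52.8 and 49.7 TPM with FSK. Syt4, a synaptotagmin, showed the opposite order at 39.1 and 40.2 TPM with Ex-4 and 129 and 134 TPM with FSK. The core fusion genes Stx1a, Snap25 and Vamp2 were not called, at 0.00, -0.56 and -0.27. Snap25 was called higher with FSK in 7 alternatives, at -0.63 to -0.59, among them median-centring, ERCC scaling, edgeR and DESeq2.

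The pathway's own components differed at several steps. Glp1r, the receptor for Ex-4, measured 99.95 and 104 TPM with Ex-4 and 82.8 and 84.1 TPM with FSK, against 95.4 and 89.8 TPM in CON. Its log2 difference of 0.29 ± 0.04 (SE; limma adjusted p = 2.8e-07) lay below the 1.5-fold minimum. The related receptor genes Gipr and Gcgr were called higher with Ex-4, Gipr at 80.0 and 74.1 against 36.0 and 36.6 TPM and Gcgr with a log2 difference of 0.60. The Gcgr call ended in 8 alternatives, at 0.53 to 0.57, among them median-centring, ERCC scaling, edgeR, DESeq2 and the fits without Ex-4 replicate 1 or FSK replicate 1. The adenylyl cyclase genes Adcy6 and Adcy8 were also higher with Ex-4, at 63.6 and 66.1 against 32.8 and 32.6 TPM and at 16.7 and 17.5 against 8.91 and 9.06 TPM. Adcy5 was not called, at 1.88 and 2.05 against 1.34 and 1.64 TPM.

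Phosphodiesterases, which break down cAMP, went in both directions. Pde10a measured 24.4 and 25.96 TPM with Ex-4 and 54.1 and 54.4 TPM with FSK, against 14.6 and 12.9 TPM in CON. Pde4d measured 13.6 and 14.7 against 21.9 and 22.9 TPM, with a log2 difference of -0.63, close to the 1.5-fold minimum. Pde3a had a log2 difference of -1.58 at a low level of 0.705 and 0.817 TPM with Ex-4 and 4.43 and 4.12 TPM with FSK, and -2.52 to -2.55 in the count models. Pde4c was the phosphodiesterase with the largest difference the other way, at 11.4 and 11.1 against 5.13 and 4.31 TPM. In all, 6 of 28 genes of cAMP production and breakdown were higher with Ex-4 and 4 with FSK. This was a share called of 35.7% against 18.7% of all tested genes. The split did not lean to Ex-4 after median-centring or ERCC scaling. There Gcgr and Pde1b (0.54 and 0.55) lost the call, and Pde8a (-0.62 and -0.63) was called higher with FSK.

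Among PKA, Epac and desensitization genes, 8 of 25 were higher with Ex-4 and 2 with FSK. This was a share called of 40.0% against 18.7% of all tested genes. Of the 8, Grk6 and Rgs3 lost the call after median-centring (0.566 and 0.562) and after ERCC scaling (0.556 and 0.559). Those higher with Ex-4 included the PKA catalytic and regulatory subunit genes Prkacb and Prkar2b (log2 difference 0.70 and 0.71), the Epac gene Rapgef4 (0.94) and the receptor kinase gene Grk5 (1.09). Rgs16, which shortens G protein signalling, measured 86.5 and 92.4 TPM with Ex-4 and 36.7 and 35.1 TPM with FSK. Those higher with FSK were an inhibitor and an adaptor. Pkib, a PKA inhibitor gene, measured 34.3 and 35.2 TPM with Ex-4 and 93.1 and 97.7 TPM with FSK, and Arrb1, the arrestin gene, 4.03 and 4.28 against 14.1 and 15.1 TPM. For both, Ex-4 against CON was not called.

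Of 13 genes of the Txnip and ChREBP list, 4 were higher with Ex-4 and 1 with FSK (38.5% called, 18.7% of all tested genes). Mlxipl, which encodes the glucose-responsive factor ChREBP, measured 172 and 182 TPM with Ex-4 and 54.6 and 58.3 TPM with FSK, against 293 and 272 TPM in CON. Its targets Arrdc4 and Pklr had log2 differences of 2.54 and 1.21, as did Txnip at 3.44, whereas Fasn, Acly and Acaca were not called, at 0.28, 0.28 and 0.50. Arrdc3, the Txnip relative higher with FSK, measured 4.39 and 4.70 against 11.2 and 12.3 TPM.

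Glucose uptake and glycolysis genes were higher with Ex-4 for 3 of 20 and higher with FSK for 6 (45.0% called). Pklr, liver-type pyruvate kinase, was among those higher with Ex-4. Slc2a1, the ubiquitous glucose transporter, was higher with FSK, at 55.0 and 57.9 against 132 and 139 TPM. So was Slc16a1, the lactate and pyruvate carrier, at 5.41 and 5.84 against 16.9 and 20.6 TPM. Of 41 genes of the TCA cycle, pyruvate dehydrogenase and NADH shuttles, 5 were higher with Ex-4, among them the pyruvate dehydrogenase kinase gene Pdk2 (1.17), and 3 with FSK, among them Sucla2 (-1.01) and Got1 (-0.98). The 5 became 3 after median-centring and 2 after ERCC scaling, where Idh1, Idh2 and Suclg2 lost the call. The share called before these changes of scale, 19.5%, was close to the 18.7% of all tested genes.

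Cholesterol genes stood above CON with both agents. Of 32 tested, 23 were called higher than CON with Ex-4 and 25 with FSK, where 3.53% and 10.3% of all tested genes were. The median log2 differences from CON were 1.06 and 1.09. Both counts were 27 after median-centring and after ERCC scaling. The direct comparison called 2 higher with Ex-4 and 4 with FSK, with a median of -0.14, and this share of 18.8% was close to the 18.7% of all tested genes. In the count models with ERCC scaling the 4 became 7. Hmgcs1, an early enzyme of cholesterol synthesis, measured 298 and 297 TPM with Ex-4 and 387 and 393 TPM with FSK, and the 95% interval of its log2 difference was -0.50 to -0.28. Cyp51, Idi1, Insig1 and Msmo1 were called higher with FSK, at -0.91 to -0.66. The cholesterol exporter genes Abca1 and Abcg1 were called higher with Ex-4, Abca1 at 18.3 and 21.2 against 4.13 and 4.45 TPM, where CON was 50.4 and 46.1 TPM. Of 35 fatty acid genes, 5 were higher with Ex-4 and 3 with FSK. The former included Cpt1c (0.97) and the oxidation gene Eci1 (1.00), and the latter the triglyceride synthesis gene Dgat2 (-1.36). The 3 became 5 after median-centring and without Ex-4 replicate 2, and 7 after ERCC scaling, where Elovl5, Elovl7, Acsl3 and Acsl4 gained the call. Before these changes 22.9% of the fatty acid list was called, not far from the 18.7% of all tested genes.

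Endoplasmic reticulum folding genes also stood above CON with both agents. Against CON, 18 of 33 were called higher with Ex-4 and 24 with FSK, where 3.53% and 10.3% of all tested genes were. These counts were 22 and 31 after median-centring and 25 and 31 after ERCC scaling. The direct comparison called 1 higher with Ex-4 and 6 with FSK, a share of 21.2% against 18.7% of all tested genes. The 6 became 8 after median-centring, after ERCC scaling, in edgeR and in DESeq2, where P4hb and Atf6 gained the call. The 6 included the stress sensor genes Ern1 (IRE1; 9.63 and 11.4 against 29.8 and 32.4 TPM) and Eif2ak3 (PERK; 25.3 and 26.3 against 56.0 and 59.4 TPM). The chaperone gene Hspa5 was not called, at 1622 and 1656 against 1828 and 1885 TPM.

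Cell cycle genes had no common direction, with 5 of 40 higher with Ex-4 and 6 with FSK (27.5% called, 18.7% of all tested genes). Besides Ccnd1, the inhibitor gene Cdkn1a was higher with FSK, at 22.2 and 22.9 against 73.6 and 78.8 TPM, and Ccne1, encoding cyclin E1, was higher with Ex-4, at 42.7 and 45.4 against 20.7 and 21.7 TPM. The proliferation marker Mki67 was not called, at -0.16. Of 16 clock genes, 5 were higher with Ex-4 (Dbp, Tef, Per3, Nr1d2 and Nr1d1), and 5 with FSK (Nfil3, Rorb, Cry2, Arntl and Npas2). This was 62.5% called. The Npas2 call (-0.60) ended without Ex-4 replicate 2 and without FSK replicate 2 (-0.561 and -0.565). Dbp measured 85.9 and 87.0 against 26.3 and 26.2 TPM, and Nfil3, which competes with Dbp for its sites, 19.95 and 19.7 against 60.8 and 58.7 TPM.

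The 3 delayed cAMP genes were all higher with FSK. Kdr, encoding a VEGF receptor, measured 0.796 and 0.820 TPM with Ex-4 and 4.52 and 4.84 TPM with FSK, a log2 difference of -1.65 that was -2.57 to -2.60 in the count models. Osbpl6, an oxysterol-binding protein gene, measured 6.14 and 6.54 against 13.9 and 15.6 TPM. Of 29 survival, heat shock and antioxidant genes, 4 were higher with Ex-4, among them the survival genes Bcl2 and Bcl2l1 (0.64 each), and 2 with FSK, the NRF2 targets Hmox1 (-1.71) and Srxn1 (-1.16). The Bcl2 call ended after median-centring (0.58) and without Ex-4 replicate 2 (0.545), and the Bcl2l1 call after ERCC scaling (0.58). The survival gene Mcl1 lay on the other side and was not called, at -0.54. It was called higher with FSK after median-centring (-0.59), after ERCC scaling (-0.60) and in DESeq2 (-0.59). Of 22 interferon response genes, 1 was higher with Ex-4 and 4 with FSK, namely Ifi27l2b, Psmb8, Usp18 and Tap1. The regulators Irf2 and Irf1 were not called, at 0.54 and 0.35. The shares called, 20.7% of the survival, heat shock and antioxidant list and 22.7% of the interferon list, were near the 18.7% of all tested genes.

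Few genes of housekeeping complexes were called. Of 78 cytosolic ribosomal protein genes and 74 respiratory chain and ATP synthase genes, 0 were called in limma. At an unadjusted p under 0.05, with no fold minimum, the counts were 31 and 52, and edgeR and DESeq2 called 0 in both lists. Of 68 mitochondrial ribosomal protein genes, Mrps33 was higher with Ex-4 and Mrpl47 with FSK, and of 37 proteasome genes the immunoproteasome gene Psmb8 was higher with FSK. Of 30 Mediator genes, Med23 was higher with Ex-4 (0.70) and Med30 with FSK (-0.74). Med14 was not called, at 17.2 and 19.5 TPM with Ex-4 and 21.5 and 21.7 TPM with FSK.

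**Figure D4:**
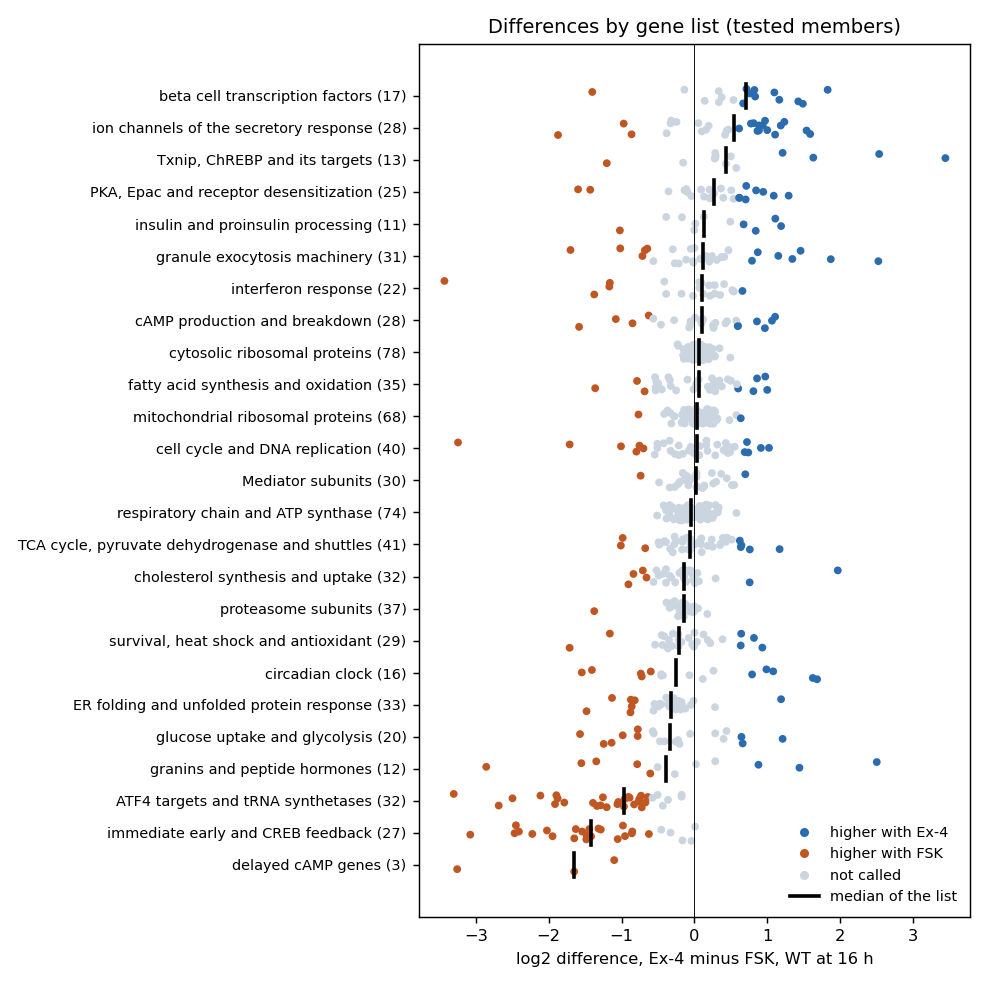
Log2 difference, Ex-4 minus FSK, of every tested member of the 25 function lists in WT at 16 h, with the number of members in brackets and the list median as a black bar. Blue and orange points are called higher with Ex-4 and with FSK. The CREB feedback and ATF4 lists lie to the left of 0, at medians of -1.42 and -0.96, and the beta cell transcription factors to the right, at 0.71.

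The same comparison in Med14 S983A cells used 4 other libraries. It called 1677 genes (16.3%), 1085 higher with Ex-4 and 592 with FSK. Of the WT genes higher with Ex-4, 748 were also called in Med14 S983A, which is 63.6% of the WT and 68.9% of the Med14 S983A calls. Of those higher with FSK, 349 were shared, which is 46.6% and 59.0%. After ERCC scaling the Med14 S983A split was 528 and 2054, while the WT split stayed at 1048 and 901. The difference between genotypes was called for 736 genes (7.16%), 329 with the higher value in WT and 407 with the lower, and this became 1154 and 191 after ERCC scaling.

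Genes of the integrated stress response and immediate early genes gave some of the largest differences between genotypes. In Med14 S983A cells Trib3 measured 86.5 and 87.0 TPM with Ex-4 and 142 and 146 TPM with FSK, so that Ex-4 and FSK stood closer together than in WT (genotype difference -2.58 ± 0.13 SE; limma adjusted p = 1.6e-13). Chac1 measured 94.6 and 90.8 TPM with Ex-4 and 88.5 and 95.4 TPM with FSK, groups that overlapped. Nr4a1 measured 50.3 and 42.4 TPM with Ex-4 and 37.2 and 33.7 TPM with FSK. In each of these genes the Ex-4 level was higher in Med14 S983A than in WT. Of 32 ATF4 list members, 7 were called higher with FSK in Med14 S983A (5.76% of all tested genes), and the genotype difference was called negative for 24 (3.96% of all). Of 27 immediate early members, 13 were called higher with FSK in Med14 S983A, and the genotype difference was called negative for 13. After ERCC scaling, 15 and 18 members of the 2 lists were called higher with FSK in Med14 S983A, and the negative genotype differences numbered 15 and 10.

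Txnip had the largest genotype difference of the named genes, at 3.69 ± 0.12 (SE; limma adjusted p = 7e-17). In Med14 S983A cells it measured 55.9 and 52.9 TPM in CON, 5.93 and 4.49 TPM with Ex-4 and 6.32 and 6.35 TPM with FSK, and its log2 difference between the agents, -0.25, was not called. Nmu was at or below 0.097 TPM in all 4 Med14 S983A libraries at 16 h. Vgf differed more between the agents in Med14 S983A, at 128 and 155 against 1267 and 1192 TPM.

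Beta cell transcription factors were also higher with Ex-4 for 12 of 17 members in Med14 S983A, and ion channels for 15 of 28, where 10.6% of all tested genes were. These counts fell to 7 and 9 after ERCC scaling, with median log2 differences of 0.44 and 0.37 in place of 0.78 and 0.65. For Fxyd6 the genotype difference was -0.07, with log2 differences of 2.57 in WT and 2.64 in Med14 S983A. Ins2 was higher with Ex-4 in Med14 S983A as well, at 20103 and 20500 against 6719 and 6724 TPM, although its CON level of 32620 and 37516 TPM was far above that of WT. For Plat, Gprc5a, Lrrc39 and Kdr, which were below 5.5 TPM in the Med14 S983A libraries of CON and 16 h, the genotype difference was called on the log2(TPM + 1) scale but not in the same direction or not at all in the count models. Plat, for example, was -1.33 in the first and 0.82 to 1.12 in the second.

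**Figure D5:**
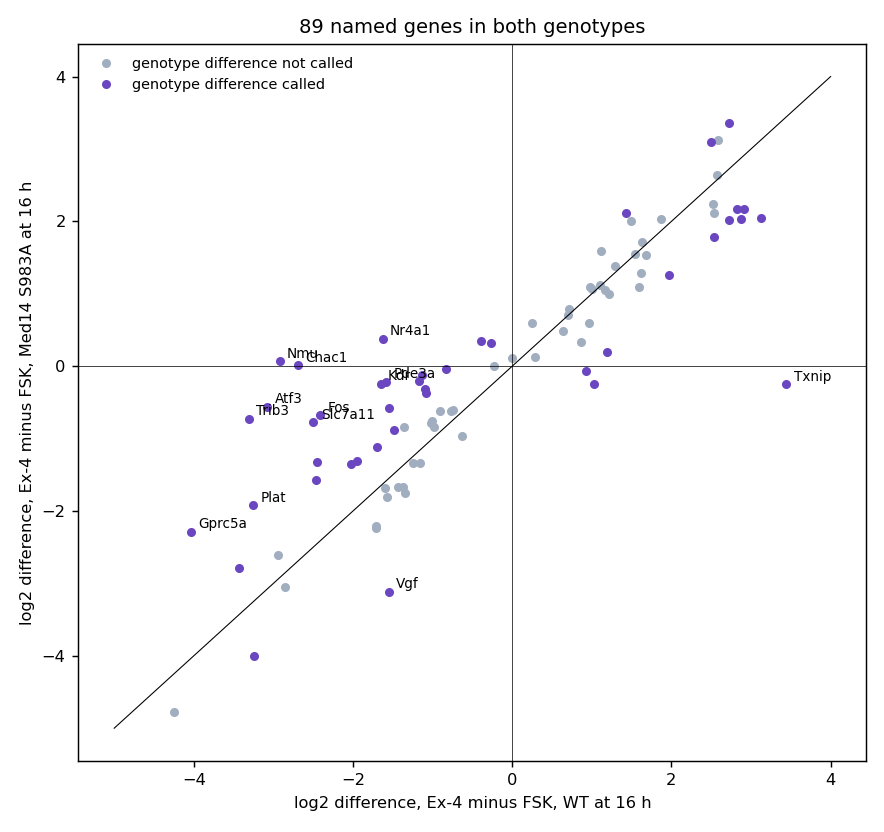
Log2 difference, Ex-4 minus FSK, at 16 h in WT (x axis) and in Med14 S983A (y axis) for the 89 named genes, with the line of equality. Purple points have a called difference between genotypes, and those farther than 1.3 from the line are labelled, with Txnip at 3.44 and -0.25 and Chac1 at -2.69 and 0.01.

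At 8 h the difference between the agents in WT was tested against that at 16 h, and 1380 genes (13.4%) changed between the times, 186 towards Ex-4 and 1194 towards FSK. These counts moved with the scaling, to 449 and 424 after median-centring and 102 and 2505 after ERCC scaling, and the median of all genes moved by -0.19 in TPM. Several genes differed more at 16 h. Scg2 had a log2 difference of 0.91 at 8 h and 2.5 at 16 h, Scgn 1.10 and 2.72, and Fxyd6 0.87 and 2.57. Ifi27l2b went from -1.10 to -3.43 and Atf3 from -1.56 to -3.08. Fst stood at -4.11 at 8 h and -4.25 at 16 h, a change of -0.14 that was not called (limma adjusted p = 0.343). Hmgcs1 differed by -1.81 at 8 h and by -0.39 at 16 h, so that the agents were closer at the later time.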

How the data were processed

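Per the labels, RNA from INS-1 cells was spiked with ERCC RNAs and made into directional libraries. The authors mapped reads to rn6 plus the ERCC sequences with STAR 2.5.3a and deposited TPM values from HOMER 4.11.1, counted by strand over exons of RefSeq transcripts and not scaled on the spike-ins. A second deposited table holds raw counts of the 92 ERCC sequences. TPM is a share of each library, so a gene can move because others do.

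The transcript with the highest mean TPM stood for each symbol, and ERCC rows were dropped, leaving 17455 symbols. The 10275 genes averaging 1 TPM or more over 28 libraries were fitted in limma 3.58.1 (R 4.3.3) on log2(TPM + 1), with 14 group means, 14 residual degrees of freedom and Benjamini-Hochberg adjustment, two-sided. Fold changes of low genes are understated on this scale. The study's own DESeq2 test needs gene counts, which were not used here, so reads were recovered from TPM and transcript length. The 126135 values tested were under 1000 reads and had a small error from the rounding of TPM. Of these, 100% came out whole within that error plus 0.05 reads, where 23% would by chance. These reads were used in edgeR 4.0.16 and DESeq2 1.42.0 as alternatives. On simulated counts with 200 of 10275 genes changed, limma recovered 95% of 2-fold and 99% of 3-fold changes. These changes had random directions and a single fixed dispersion. The simulation therefore does not address shifts of TPM shares when many genes change.

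Other alternatives were a pseudocount of 0.1 TPM, no filter, a mean of 5 TPM, median-centring, ERCC scaling, fits on fewer libraries, a replicate block and leaving out each library in turn. Named genes were the 10 largest called in each direction at a mean of 10 TPM, up to 3 called genes per list with the largest change, and a fixed set. Of the genes so named, 2 are not reported here. Other members given in the text were chosen after their values were seen, as examples of their list. The members and lists were chosen with earlier results of these data known. Replicates differed by more than counting error (chi-square per degree of freedom 3.88 and 4.93). Promoters of 300 bases, 250 before and 50 after the start site, were from RefSeq (GRCr8), with 8201 of 10275 genes matched by symbol.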

Additional observations from a re-analysis of the deposited data

Results flagged for a closer look

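The difference between Ex-4 and FSK at 16 h differed between WT and Med14 S983A for 40 named genes and between 16 h and 8 h in WT for 28, in each case by a limma test of the difference itself at 1.5-fold and an adjusted p under 0.05. Values are log2 and signed as WT minus Med14 S983A, or 16 h minus 8 h, of Ex-4 minus FSK. A negative value can mean a larger excess with FSK or a smaller excess with Ex-4.

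Between genotypes, the immediate early and CREB feedback genes were Atf3 (-2.52), Nr4a1 (-2.0), Fos (-1.73), Rgs2 (-1.13), Fosl2 (-0.89), Crem (-0.68) and Sik1 (-0.63). The stress response genes were Chac1 (-2.70), Trib3 (-2.58), Slc7a11 (-1.72), Eif2ak3 (-1.01) and Ern1 (-0.60). Secretory and signalling genes were Nmu (-2.99), Gprc5a (-1.75), Pde3a (-1.37), Pde10a (-0.71), Scgn (-0.64), Scg2 (-0.60), Syt4 (-0.59), Ffar3 (0.83), Ero1b (1.00) and Vgf (1.56). Metabolic genes were Idi1 (-0.79), Maob (0.65), Glul (0.70), Abca1 (0.71), Crp (0.74), Arrdc4 (0.75), Gpx3 (1.00) and Txnip (3.69). Gpx3 was barely expressed in Med14 S983A at 16 h, at 0.289 and 0.173 TPM with Ex-4 and 0.325 and 0.246 TPM with FSK. The remaining genes were Kdr (-1.41), Plat (-1.33), Nfil3 (-0.97), Usp18 (-0.97), Osbpl6 (-0.78), Rfx6 (-0.69), Ifi27l2b (-0.64), Ccnd1 (0.76), Lrrc39 (1.08) and Ccne1 (1.26).

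These calls depended on the scaling for part of the genes. Of the 40, 37 were called in the same direction after median-centring, 29 after ERCC scaling, 36 in edgeR, 35 in DESeq2 and 25 in each of edgeR and DESeq2 with ERCC scaling. The sign was the opposite for Lrrc39 (-0.69), Gprc5a (0.08) and Plat (0.82) in edgeR. Scgn, Ifi27l2b, Pde10a, Rfx6, Scg2, Syt4, Idi1, Ern1, Osbpl6, Crem and Sik1 lost the call after ERCC scaling in limma.

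Between times, the differences moved towards Ex-4 at 16 h for Fxyd6 (1.70), Scgn (1.62), Scg2 (1.59), Baiap3 (1.41), Rab3b (1.3), Maob (1.03), Ins2 (0.84), Ffar3 (0.80), Mlxipl (0.80), Ero1b (0.66) and Idi1 (0.64), of which Idi1 was higher with FSK at both times, at -1.47 and then -0.84. They moved towards FSK for Ifi27l2b (-2.33), Psmb8 (-1.52), Atf3 (-1.51), Plat (-1.35), Med30 (-1.09), Slc16a1 (-0.97), Pkib (-0.94), Dgat2 (-0.89), Arrb1 (-0.87), Depdc7 (-0.82), Gprc5a (-0.72), Syt4 (-0.65), Ern1 (-0.64), Trib3 (-0.64), Slc2a1 (-0.63), Usp18 (-0.59) and Crem (-0.59). Of the 28, 21 were called after median-centring, 26 after ERCC scaling and 22 in edgeR and in DESeq2, with 0 changes of sign. Groups of 2 libraries were too small to look for single libraries that stand apart.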

How the results depend on the processing

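The WT counts of 1176 genes higher with Ex-4 and 749 higher with FSK ranged from 967 to 1395 and from 576 to 1038 over the alternatives that kept the fold minimum. Without the fold minimum, 7023 genes were called, 3859 higher with Ex-4 and 3164 with FSK, and 6892 in Med14 S983A, 3894 for the genotype difference, 5714 for the time difference, 7057 for Ex-4 against CON and 8271 for FSK against CON. Leaving out 1 library at a time gave 1134 to 1230 genes higher with Ex-4 and 703 to 788 with FSK.

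Scaling to the ERCC RNAs moved the Med14 S983A count from 1677 to 2582 (2968 in edgeR, 2959 in DESeq2), the genotype count from 736 to 1345 (1535 and 1502) and the time count from 1380 to 2607 (3195 and 3156). Median-centring moved the time count to 873. The share of calls higher with Ex-4 stayed between 53.8% and 63.6% in WT, but against CON the share of higher calls moved from 29.9% to 78.9% with Ex-4 and from 30% to 66% with FSK after ERCC scaling. The cause was not tested. In edgeR the time counts were 461 and 816, where the main counts were 186 and 1194.

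Of 1510 values of 89 named genes, 1497 kept direction and call. Of the 89, 83 were called, and most of these were named because their differences were large in these same data. Their calls therefore had room to hold. Mrps33 lost its call in 5 alternatives (0.55 without 1 FSK library) and Pde4d without 1 Ex-4 library (-0.57). Ins1, at -0.002, changed sign without Ex-4 replicate 2 (0.01) and without FSK replicate 1 (0.033), within a range of -0.037 to 0.033 over the 4 libraries left out in turn. Glp1r, Adcy5, Hmgcs1, Cartpt and Med14 passed with no fold minimum. Of 850 list counts, 64 moved by more than 1.5 times.

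Same-numbered libraries did not deviate together (r = 0.0899 in WT and -0.0627 in Med14 S983A), so numbers were not taken as pairs. A replicate block left the WT counts at 1176 and 749.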
